A study of Mus musculus with 6 samples.

Results

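The genes described here are those of the NRF2 and antioxidant system. They were chosen by name, as 39 mouse genes coding for the transcription factor NRF2 and its inhibitor Keap1, for the synthesis and use of glutathione, for the thioredoxin, peroxiredoxin and superoxide dismutase enzymes, and for other genes known as NRF2 targets. All 39 were found among the 24190 genes of the count table by matching Ensembl identifiers to GENCODE symbols, and 37 had enough counts to be tested. RNA was sequenced from MTO54 parental organoids, a mouse tumor organoid (MTO) line labelled as AKP colorectal cancer, a genotype that both groups share. The control group was 3 cultures given fresh stem cell medium, and the Folfiri group was 3 cultures given medium with SN38, the active form of irinotecan, at 100 nM and 5FU. The labels write the 5FU dose as 50 μg/μl, and its unit may be a typing error for a far lower one, so the dose is uncertain. By the labels, treatment started 2 days after the organoids were seeded as single cells and lasted 2 days. The descriptions of the study are not uniform on the length of treatment, and one gives a longer time, so it is uncertain too. The organoids are 1 line from a primary tumor and were grown without stroma, immune cells or a host. The sample labels number the cultures without saying how they were separated, so the p values measure the spread between these samples.

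NRF2, the product of Nfe2l2, is held in the cytoplasm by Keap1, which hands it to a Cul3 ubiquitin ligase for degradation. Oxidants and electrophiles modify Keap1, and NRF2 then enters the nucleus, pairs with a small Maf protein and binds antioxidant response elements near genes that make glutathione, reduce thioredoxin, supply NADPH and conjugate or export toxic compounds. In the intestinal epithelium this system meets the oxidants of food, bacteria and the cells' own metabolism, and in tumors it is also known for its part in drug resistance.

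Total counts on genes were between 22103591 and 30098210 per sample. Levels are CPM, counts scaled for library size, after TMM scaling, and calls are edgeR quasi-likelihood tests at a Benjamini-Hochberg adjusted p under 0.05 over all 14692 genes tested. Control replicate 1 stood apart from the other controls, with a chi-square per degree of freedom of 23.7 and 22.4 against 3.84 between control replicates 2 and 3. Folfiri replicate 3 stood apart less, at 12.3 and 11.9 against 3.55. Epithelial markers summed to between 5970 and 6960 CPM in controls and between 4820 and 4990 CPM after Folfiri. Epcam, Krt8, Krt19, Cldn7 and Cdx2 were called lower, Cdx2 the most at a log2 fold change of -1.53. Cdh1 was called higher, at 0.21, and Krt18 and Vil1 were not called. Erythroid markers, of interest because red cells are rich in Prdx2, Cat and Blvrb, summed to at most 0.838 CPM in any sample. Fibroblast markers summed to between 1.08 and 1.44 CPM in controls and between 2.03 and 2.45 CPM after Folfiri, with Dcn and Pdgfra called higher and Col1a1 called lower. Immune markers summed to between 21.4 and 26.1 CPM in controls and between 21.6 and 22.6 CPM after Folfiri, nearly all of it Cd68, while Tyrobp and Lyz2 were at most at 0.0202 CPM on average. Ptprc, the general leukocyte marker of that list, was low but higher after Folfiri, at a mean of 0.396 CPM in controls and 1.06 CPM after Folfiri (log2 fold change of 1.39, SE 0.26, edgeR adjusted p = 0.000479). Endothelial markers summed to between 72.2 and 124 CPM in controls and between 65.5 and 76.2 CPM after Folfiri, nearly all of it Cdh5, with Pecam1 at 0.47 and 0.459 CPM and Kdr at 0 and 0.074 CPM. The part of other cells in the results was not tested.

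After Folfiri, 22 of the 37 tested members were lower and 9 were higher (edgeR, adjusted p under 0.05), and 6 were not called. The lower members included Hmox1, Me1, Gstm1, Blvrb and Sod1, with levels between 2.30-fold and 3.09-fold lower than in controls. Higher members included Mgst1, Akr1b8 and Gsto1, each close to or above a doubling, and Prdx6, Txnrd1 and Sod2 by less. Across all tested genes 79.1% were called, 40.3% as higher and 38.8% as lower. The members' called share was 83.8%, with 24.3% higher and 59.5% lower. The groups did not overlap for 32 of the 37 members, and this held for 81.4% of all tested genes. The median log2 fold change of the members was -0.46, beside 0.02 for all tested genes. With scaling by total counts only, 14 members were higher and 18 lower, and the medians became -0.18 for the members and 0.30 for all genes. Keap1, Gclc, Txn1, Gpx1 and Abcc1 were then called higher, and Slc7a11, Gsr, Prdx1 and Prdx2 were no longer called lower. Without control replicate 1 there were 10 higher and 22 lower members, and without Folfiri replicate 3 there were 8 and 21.

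At a log2 fold change of at least 1 in size, 8 members were lower and 2 higher, where 16.8% and 19.5% of all tested genes passed that limit in each direction. No member reached the outermost genes. The log2 fold changes of all 37 lay between -1.63 for Hmox1 and 1.18 for Mgst1, inside the range from -1.99 to 2.23 that holds the central 90% of all tested genes. Of the members, 11 lay below the lower quartile of all genes, -0.70, and 3 above the upper quartile, 0.76. Because the samples are bulk RNA, fewer cells of a type and less RNA per cell cannot be told apart.

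**Figure D1:**
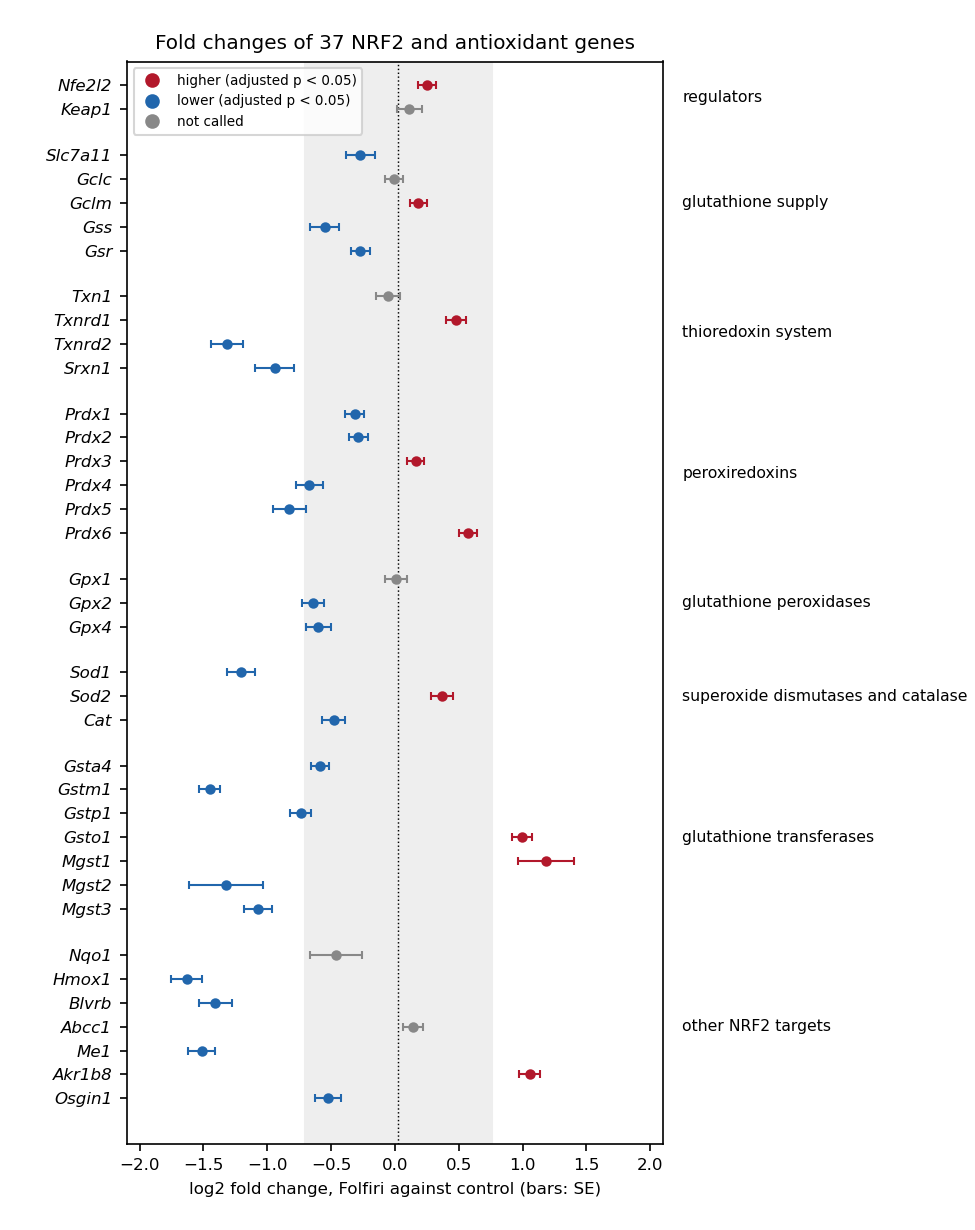
Log2 fold change of each of the 37 tested members, Folfiri against control (x axis), grouped by system, with the SE as bars. The grey band spans the quartiles of all tested genes, -0.70 to 0.76, the dotted line marks their median of 0.02, and 22 members are called lower (blue) against 9 higher (red) and 6 not called (grey).

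Promoters of the members were searched for the letters of an antioxidant response element, TGACNNNGC on either strand, in the RefSeq windows of GRCm38.p6 that run from 250 bases before to 50 bases after a start site. A window was found for 32 of the 39 members, and 8 of these held a match (25%), beside 14% of all genes with a window. The matches are shown because they set, for genes that moved in opposite directions, the same letters side by side. Each is written 5′ to 3′ on the strand that carries it, with the matching bases in capitals and 10 bases on each side.
Gclm: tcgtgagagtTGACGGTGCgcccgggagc
Txnrd1: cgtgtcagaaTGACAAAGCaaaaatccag
Nfe2l2: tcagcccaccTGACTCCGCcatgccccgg
Mgst1: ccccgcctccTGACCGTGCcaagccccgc
Prdx1: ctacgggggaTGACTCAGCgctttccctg
Me1: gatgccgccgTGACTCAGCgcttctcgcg
Sod1: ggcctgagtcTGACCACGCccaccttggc
Srxn1: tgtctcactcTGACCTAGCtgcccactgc
Of these genes, Gclm, Txnrd1, Nfe2l2 and Mgst1 were higher after Folfiri and Prdx1, Me1, Sod1 and Srxn1 were lower. Matches were thus found in 4 of the 8 higher members with a window (50%), in 4 of the 19 lower members (21.1%) and in 0 of the 4 that were not called, and the difference between these shares was not tested. The matches of Prdx1 and Me1 also hold TGACTCA, the letters of an AP-1 site. That of Prdx1 lies at chr4:116685466-116685474 on the minus strand, upstream of the gene, and that of Me1 at chr9:86695912-86695920 on the minus strand, across the RefSeq start site. The match of Txnrd1 lies at chr10:82859114-82859122 on the minus strand, upstream of a RefSeq start site within the gene. A match is a run of letters and not a measured binding site. The table held no window for Gclc, Gsr, Prdx6, Sod3, Gsta4, Hmox1 and Abcc1.

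The regulators came first. Nfe2l2 (ENSMUSG00000015839, chr2:75675513-75704641, GRCm38) was at 91.8, 85.0 and 80.3 CPM in control replicates 1, 2 and 3 and at 105, 102 and 99.5 CPM in Folfiri replicates 1, 2 and 3. Every treated culture lay above every control, and the gene was called higher with a log2 fold change of 0.25 (SE 0.07, edgeR adjusted p = 0.00815). Without control replicate 3 the log2 fold change was 0.20 and was not called (edgeR adjusted p = 0.0572). Keap1 (ENSMUSG00000003308, chr9:21229730-21239361) was at 44.8, 37 and 34.1 CPM in controls and at 40.7, 42.2 and 42.7 CPM after Folfiri. Its groups overlapped through control replicate 1 alone, and its log2 fold change was 0.11 (SE 0.10, edgeR adjusted p = 0.318). Without that culture the log2 fold change was 0.24 and was called (edgeR adjusted p = 0.00766). An antisense gene shares 10.9% of the exonic length of Keap1, and the library kit does not mark strand.

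**Figure D2:**
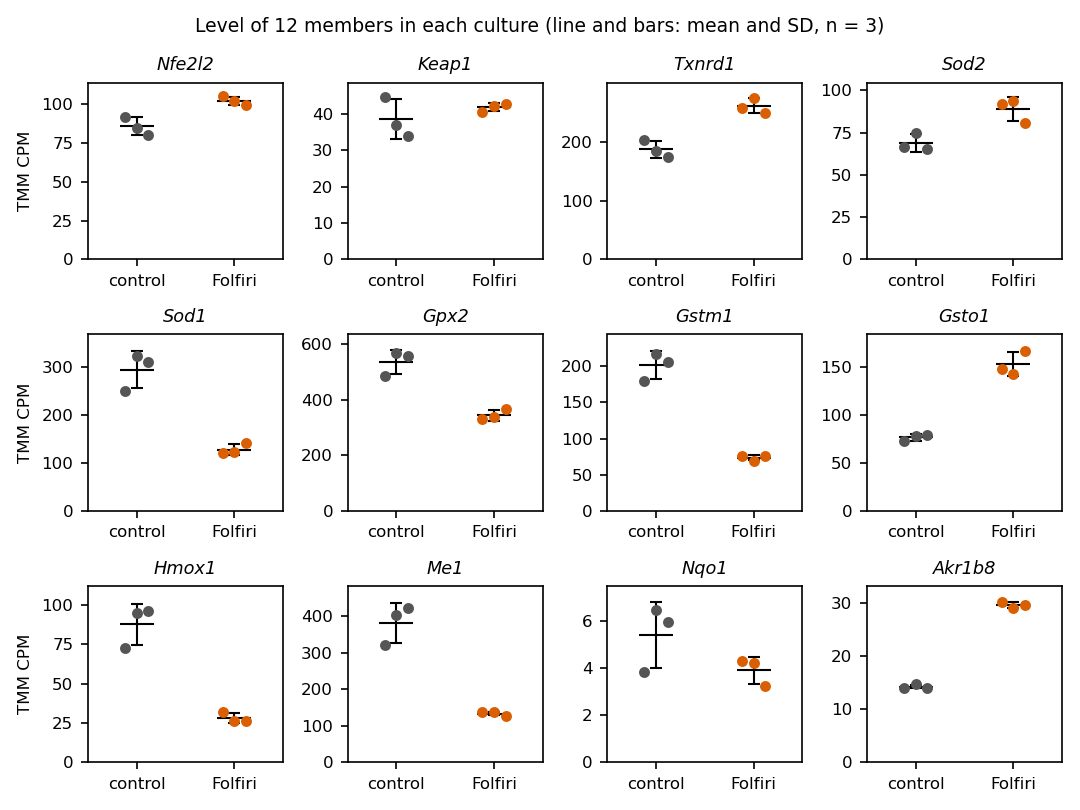
Level in TMM-scaled CPM (y axis, from 0) of 12 members in each of 3 control and 3 Folfiri cultures (points), with the mean and SD. Hmox1, Me1, Gstm1 and Sod1 sit far below the controls after Folfiri, Gsto1 and Akr1b8 far above them, and the groups overlap for Keap1 and Nqo1.

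Of the 5 genes of glutathione supply, 3 were lower (60%), 1 was higher (20%) and 1 was not called. Among all tested genes 38.8% were lower and 40.3% higher. The log2 fold changes of the 5 genes lay between -0.55 and 0.18. Slc7a11, the cystine importer that feeds glutathione synthesis, was at 177, 138 and 140 CPM in controls and at 131, 136 and 110 CPM after Folfiri, with a log2 fold change of -0.27 (SE 0.11, edgeR adjusted p = 0.0449). The highest treated culture lay just under the lowest control. This call was lost without control replicate 1 (log2 fold change of -0.14, edgeR adjusted p = 0.127), without Folfiri replicate 1 (-0.30, adjusted p = 0.0694) and without Folfiri replicate 3 (-0.18, adjusted p = 0.177). It was also lost with upper quartile scaling (-0.22, edgeR adjusted p = 0.109), with a filter at a mean of 1 CPM (-0.25, adjusted p = 0.059) and with total counts only, where the log2 fold change was 0 (adjusted p = 0.994). Gclc, the catalytic subunit of glutamate-cysteine ligase, was at 53.9, 49.8 and 48.7 CPM in controls and at 49.6, 51.8 and 50.4 CPM after Folfiri, with overlapping groups and a log2 fold change of -0.01 (SE 0.07). Its modifier subunit Gclm was at 71.2, 68.0 and 72.7 CPM in controls and at 78.4, 80.8 and 81.2 CPM after Folfiri. Gclm was called higher at a log2 fold change of 0.18 (SE 0.07, edgeR adjusted p = 0.0272), a call that was lost without control replicate 2 or 3 or Folfiri replicate 1 or 2 (adjusted p between 0.0507 and 0.147), with the replicate number as a block (0.0679) and with no filter on low counts (0.136). Gss, the synthetase that adds glycine, was at 61.8, 86.2 and 79.5 CPM in controls and at 50.8, 51.5 and 53.0 CPM after Folfiri, lower by a log2 fold change of -0.55 (SE 0.11, edgeR adjusted p = 0.000896). Its exons overlap those of Acss2 and 2 antisense genes on the other strand. Gsr, which reduces oxidized glutathione, was at 307, 307 and 294 CPM in controls and at 262, 260 and 231 CPM after Folfiri. Its log2 fold change of -0.27 (SE 0.07, edgeR adjusted p = 0.00663) became 0.01 with scaling by total counts only.

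Within the thioredoxin system the 2 reductases moved in opposite directions. Txnrd1, the cytosolic thioredoxin reductase (ENSMUSG00000020250, chr10:82833951-82897712), was at 203, 184 and 174 CPM in controls and at 258, 275 and 249 CPM after Folfiri. It rose by a log2 fold change of 0.48 (SE 0.08, edgeR adjusted p = 0.000221), with every treated culture above the controls. Txnrd2, the mitochondrial reductase, was at 7.49, 7.44 and 7.35 CPM in controls and at 3.09, 2.78 and 3.09 CPM after Folfiri. The controls lay close together and the treated cultures far under them, at a log2 fold change of -1.31 (SE 0.13, edgeR adjusted p = 3.6e-06). Txn1, the cytosolic thioredoxin that Txnrd1 reduces, was not called, with 362, 431 and 418 CPM in controls and 367, 368 and 431 CPM after Folfiri and a log2 fold change of -0.05 (SE 0.10). Srxn1, the sulfiredoxin that repairs overoxidized peroxiredoxins, fell from 20.9, 15.4 and 14.6 CPM to 10.0, 8.29 and 8.31 CPM (log2 fold change of -0.94, SE 0.15, edgeR adjusted p = 0.000163). Control replicate 1 was its highest sample, and without it the log2 fold change was -0.76.

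All 6 peroxiredoxins, which remove hydrogen peroxide with a reactive cysteine, were called, where 79.1% of all tested genes were. Of the 6, 4 were lower (66.7%) and 2 higher (33.3%), beside 38.8% and 40.3% of all tested genes. Prdx6, the member that works with glutathione in place of thioredoxin, rose from 122, 134 and 134 CPM to 190, 193 and 199 CPM (log2 fold change of 0.57, SE 0.07, edgeR adjusted p = 1.99e-05). Prdx5, found in mitochondria, peroxisomes and the cytosol, fell from 273, 386 and 378 CPM to 206, 177 and 203 CPM (log2 fold change of -0.83, SE 0.13, edgeR adjusted p = 0.000121). The treated cultures lay under the lowest control, which was replicate 1, for Prdx5. Trmt112 on the opposite strand shares 19.1% of its exonic length. Prdx4, the peroxiredoxin of the endoplasmic reticulum, fell from 35.7, 41.9 and 40.7 CPM to 21.9, 24.1 and 28.1 CPM, a log2 fold change of -0.67 (SE 0.11). The abundant cytosolic Prdx1 fell from 557, 613 and 607 CPM to 472, 478 and 479 CPM (log2 fold change of -0.32, SE 0.08), and cytosolic Prdx2 from 164, 181 and 172 CPM to 138, 134 and 151 CPM (log2 fold change of -0.29, SE 0.08). These 2 changes depend on the scaling, at -0.04 and -0.01 with total counts only, where neither was called. Mitochondrial Prdx3 was at 91.1, 92.1 and 87.9 CPM in controls and at 97.9, 102 and 104 CPM after Folfiri. Its log2 fold change of 0.16 (SE 0.07, edgeR adjusted p = 0.0405) was not called in 5 of the 6 fits without a sample, with adjusted p between 0.0578 and 0.171 there, nor with the replicate block (0.0956), with no filter (0.197) or by DESeq2 (0.0512).

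Glutathione peroxidases reduce peroxides at the expense of glutathione. Gpx2, the form typical of the gut epithelium (ENSMUSG00000042808, chr12:76792333-76795554), was at 486, 567 and 556 CPM in controls and at 329, 337 and 366 CPM after Folfiri, with a log2 fold change of -0.64 (SE 0.09, edgeR adjusted p = 4.63e-05). The ubiquitous Gpx1 was at 235, 264 and 260 CPM in controls and at 237, 246 and 280 CPM after Folfiri, with overlapping groups and a log2 fold change of 0.01 (SE 0.09, edgeR adjusted p = 0.939). Gpx4, which reduces lipid peroxides in membranes and is known for holding back ferroptosis, fell from 142, 171 and 168 CPM to 105, 94.4 and 118 CPM (log2 fold change of -0.60, SE 0.10, edgeR adjusted p = 0.000234). Of the 50-base windows of Gpx4 transcripts, 34.7% also occur in other genes, all of these in the pseudogene Gpx4-ps2, so how reads were shared between them is uncertain. Gpx3, the secreted form, had between 1 and 7 counts in every sample and was not tested.

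Superoxide dismutases turn superoxide into hydrogen peroxide, and the cytosolic and mitochondrial forms moved apart. Sod1, the copper-zinc enzyme of the cytosol (ENSMUSG00000022982, chr16:90220754-90226329), was at 251, 323 and 311 CPM in controls and at 120, 122 and 142 CPM after Folfiri, with a log2 fold change of -1.20 (SE 0.11, edgeR adjusted p = 1.89e-06). The highest treated culture was well under the lowest control. Sod2, the manganese enzyme of mitochondria (ENSMUSG00000006818, chr17:13006846-13040063), was at 66.5, 74.7 and 65.3 CPM in controls and at 92.1, 93.8 and 80.9 CPM after Folfiri, with a log2 fold change of 0.37 (SE 0.08, edgeR adjusted p = 0.00211). All treated cultures lay above the highest control. Of the 50-base windows of Sod2 transcripts, 21% also occur in other genes, 17.6% in AC166110.4 alone, so how reads were shared between them is uncertain. Cat, the catalase of peroxisomes, fell from 66.8, 76.1 and 80.8 CPM to 56.0, 54.2 and 50.2 CPM (log2 fold change of -0.48, SE 0.09). The extracellular Sod3 had 0 counts in each control and 1 count in each treated culture, all under the floor of 3 counts per library, and no fold is given.

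Of the 7 glutathione transferases, which couple glutathione to electrophiles, 5 fell (71.4%) and 2 rose (28.6%), beside 38.8% and 40.3% of all tested genes. Gstm1, a cytosolic mu-class enzyme (ENSMUSG00000058135, chr3:108012255-108017973), was at 179, 217 and 206 CPM in controls and at 75.3, 69.5 and 75.2 CPM after Folfiri, with a log2 fold change of -1.45 (SE 0.09, edgeR adjusted p = 1.12e-07). Gstp1, the pi-class enzyme, fell from 332, 387 and 359 CPM to 215, 205 and 226 CPM (log2 fold change of -0.74, SE 0.08), and Gsta4, an alpha-class enzyme for lipid aldehydes, from 84.8, 91.7 and 91.9 CPM to 58.6, 59.3 and 60.9 CPM (log2 fold change of -0.59, SE 0.07). All treated cultures lay under all controls for these genes. Windows of 50 bases shared with other genes made up 33.7% for Gstp1, all of them with Gstp2, and 18.9% for Gstm1. In the other direction, Gsto1 of the omega class rose from 72.6, 77.7 and 79.1 CPM to 148, 143 and 167 CPM (log2 fold change of 0.996, SE 0.08, edgeR adjusted p = 8.41e-07). The microsomal members differed among themselves. Mgst1 rose from 0.9, 1.24 and 0.823 CPM to 1.91, 2.45 and 2.43 CPM (log2 fold change of 1.18, SE 0.22), Mgst2 fell from 1.37, 2.32 and 1.95 CPM to 0.503, 0.710 and 1 CPM (log2 fold change of -1.32, SE 0.29), and Mgst3 fell from 40.4, 52.0 and 52.3 CPM to 24.2, 21.5 and 23.2 CPM (log2 fold change of -1.07, SE 0.11). Mgst1 and Mgst2 rest on low counts, and their errors are the largest among the members.

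The remaining members are known NRF2 targets with other roles. Hmox1, the heme oxygenase that opens the heme ring (ENSMUSG00000005413, chr8:75093621-75100589), was at 72.3, 94.4 and 95.7 CPM in controls and at 31.9, 26.4 and 26.5 CPM after Folfiri. Its log2 fold change of -1.63 (SE 0.12, edgeR adjusted p = 5.71e-07) was the lowest of the 37 members, and stayed between -1.75 and -1.57 across the fits that left out 1 sample. Blvrb, a biliverdin reductase that acts after heme oxygenase, fell from 14.8, 20.0 and 18.2 CPM to 6.87, 6.23 and 6.83 CPM (log2 fold change of -1.41, SE 0.13). Me1, the cytosolic malic enzyme that makes NADPH (ENSMUSG00000032418, chr9:86581371-86695953), fell from 321, 405 and 422 CPM to 137, 137 and 128 CPM (log2 fold change of -1.51, SE 0.10, edgeR adjusted p = 3.09e-07). For these 3 genes control replicate 1 was the lowest control and still lay far above the treated cultures. Of the 50-base windows of Me1 transcripts, 22.9% occur in other genes.

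Nqo1, the quinone reductase most often used as an NRF2 readout (ENSMUSG00000003849, chr8:107388225-107403206), was low in these organoids. It was at 3.82, 6.44 and 5.96 CPM in controls and at 4.29, 4.20 and 3.25 CPM after Folfiri, and the groups overlapped because control replicate 1 lay below Folfiri replicates 1 and 2. The log2 fold change was -0.46 (SE 0.20, edgeR adjusted p = 0.0598). It was called without control replicate 1, at -0.67 (edgeR adjusted p = 0.000909), with no filter on low counts (adjusted p = 0.0155) and with the replicate number as a block (adjusted p = 0.0490). Akr1b8, an aldo-keto reductase, went the other way, from 14.1, 14.7 and 14.0 CPM to 30.2, 29.1 and 29.7 CPM (log2 fold change of 1.06, SE 0.08, edgeR adjusted p = 6.91e-07). Osgin1, an oxidative stress induced growth inhibitor, fell from 15.4, 17.5 and 17.4 CPM to 11.2, 11.2 and 12.5 CPM (log2 fold change of -0.52, SE 0.10). Abcc1, an exporter of glutathione conjugates, was at 175, 199 and 198 CPM in controls and at 211, 220 and 200 CPM after Folfiri (log2 fold change of 0.14, SE 0.08, edgeR adjusted p = 0.111). The groups did not overlap, and the gene was not called. It was called higher with upper quartile scaling, at 0.20 (edgeR adjusted p = 0.0252), and with total counts only, at 0.42 (adjusted p = 0.000159).

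Ratios between members of a pair do not depend on library scaling, and 6 were compared between the groups. They are ratios of counts, not per length, so they do not say which gene of a pair had the higher level, and those with Sod2 carry its shared windows. The log2 ratio of Sod2 to Sod1 counts was -1.92, -2.11 and -2.25 in controls and -0.39, -0.38 and -0.81 after Folfiri, a difference of 1.57. That of Txnrd1 to Txnrd2 was 4.76, 4.63 and 4.57 in controls and 6.39, 6.63 and 6.33 after Folfiri, a difference of 1.80. The log2 ratio of Gpx2 to Gpx1 went from 1.05, 1.10 and 1.09 to 0.47, 0.45 and 0.39, a difference of -0.64. The ratio of Gclc to Gclm fell by 0.19. For these 4 pairs the groups did not overlap, and the exact two-sided permutation test gave p = 0.1, the smallest that 3 samples against 3 allow (0.15 after Benjamini-Hochberg adjustment over the 6 ratios), so the design cannot reach 0.05. The ratio of Keap1 to Nfe2l2 differed by -0.13 and that of Prdx1 to Prdx2 by -0.02, with overlapping groups (exact permutation p = 0.2 and 0.9, adjusted 0.24 and 0.9).

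**Figure D3:**
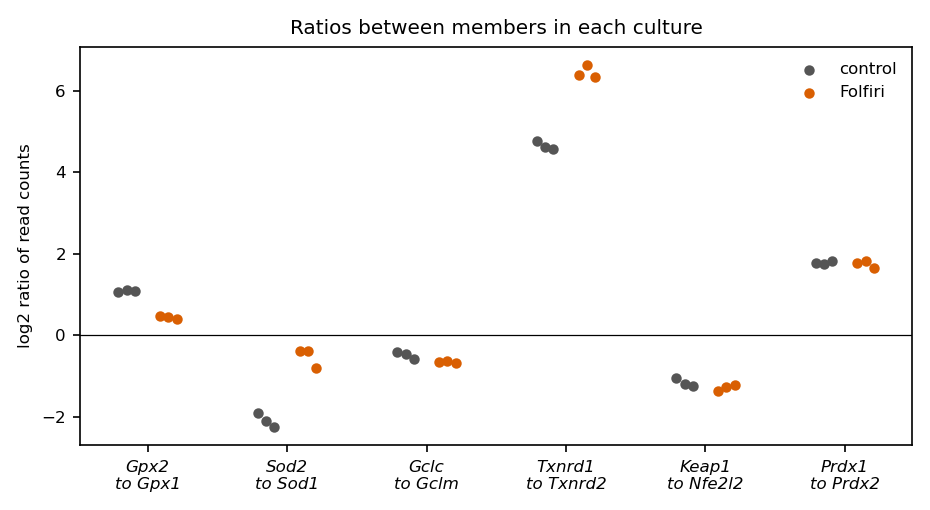
Log2 ratio of the read counts of 2 members in each culture (y axis) for 6 pairs, with 3 control and 3 Folfiri cultures as points. Folfiri and control cultures separate for Gpx2 to Gpx1, Sod2 to Sod1, Txnrd1 to Txnrd2 and, narrowly, Gclc to Gclm, and overlap for Keap1 to Nfe2l2 and Prdx1 to Prdx2.

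Levels of different genes were compared per kilobase of merged exons. On that scale Txn1 led in both groups, at 384 CPM per kilobase in controls and 370 after Folfiri. In controls it was followed by Gstp1 at 232, Prdx1 at 195, Gpx1 at 176, Gpx2 at 166 and Prdx5 at 162 CPM per kilobase. After Folfiri the order below Txn1 was Gpx1 at 177, Prdx1 at 157, Gstp1 at 139 and Gpx2 at 107 CPM per kilobase. Nqo1 was at 3.48 and 2.52 CPM per kilobase in the 2 groups. Merged exons include every annotated transcript, so a gene with long alternative ends, such as Sod2, appears lower on this scale than its main transcript would.

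Other genes of the pathway were taken from 6 lists of 110 genes that hold no member, and 95 of them were tested. Of these, 51 were lower (53.7%) and 17 higher (17.9%) by edgeR, beside 38.8% and 40.3% of all tested genes. Their called share was 71.6% beside 79.1% for all genes, and their median log2 fold change was -0.40. With total counts only, 41 were lower and 33 higher, and with a filter at a mean of 1 CPM 49 were lower and 13 higher.
NADPH supply, which keeps glutathione and thioredoxin reduced, had the lowest median, -1.01. Of its 14 genes, 10 were lower (71.4%) and 1 higher (7.14%), beside 38.8% and 40.3% of all tested genes. With a filter at a mean of 1 CPM, 10 were lower and 0 higher. Aldh1l2 and Aldh1l1, the mitochondrial and cytosolic folate dehydrogenases, fell by 4.35 and 3.35 on the log2 scale, and the mitochondrial malic enzyme Me2 by 1.90, from 106, 108 and 108 CPM to 28.0, 28.6 and 29.5 CPM. Both folate dehydrogenase genes overlap genes on the opposite strand.

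Among partners of NRF2, 4 of 16 were higher (25%) and 7 lower (43.8%), beside 40.3% and 38.8% of all tested genes. Bach2, 1 of the 4, had between 2 and 6 counts in controls and between 14 and 29 after Folfiri. It passed the expression filter only through the Folfiri group, and with a filter at a mean of 1 CPM 3 partners were higher and 7 lower. Mafk, a small Maf that pairs with NRF2 or with its competitor Bach1, rose from 33.4, 28.6 and 29.9 CPM to 74.3, 81.9 and 81.4 CPM (log2 fold change of 1.37, SE 0.09). Another small Maf gene, Maff, fell from 207, 265 and 255 CPM to 105, 98.3 and 104 CPM (log2 fold change of -1.24, SE 0.10), and Mafg rose slightly, by a log2 fold change of 0.21 that was not called with no filter or without control replicate 3 or Folfiri replicate 1 or 2. Bach1, a repressor that competes for antioxidant response elements and is known to hold Hmox1 down, fell from 67.1, 71.8 and 74.1 CPM to 25.7, 25.5 and 22 CPM (log2 fold change of -1.54, SE 0.09, edgeR adjusted p = 8.83e-08). Btrc, the beta-TrCP that offers a second route of NRF2 degradation, fell by 0.95 on the log2 scale, and Palb2, a recombination protein that can bind Keap1, rose by 1.79. The Bach1 and Hmox1 transcripts were both lower after Folfiri, with no overlap between groups for either, which held for 81.4% of all tested genes. A link between the 2 changes was not tested.

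Further targets and detoxification genes numbered 31 tested, with a median of -0.51. Of these, 19 were lower (61.3%) and 4 higher (12.9%), beside 38.8% and 40.3% of all tested genes. The mu-class relatives of Gstm1 were singled out as a family after their values were seen. All 6 of them, Gstm2 to Gstm7, were called lower, where 38.8% of all tested genes were, at log2 fold changes from -2.66 for Gstm6 and -2.55 for Gstm3 to -0.86 for Gstm2, although reads shared within this gene family cannot be told apart in gene counts. Of the other glutathione transferases in the list, Gsta3, Gstt3, Gstk1, Gstz1 and Gsto2 were also called lower, Gsta2 was called higher, and Gsta1, Gstt1 and Gstt2 were not called. Gsta3, an alpha-class transferase, fell from 45.1, 59.1 and 59.8 CPM to 11.8, 10.5 and 9.44 CPM (log2 fold change of -2.37, SE 0.13). The 3 with the largest increases were small by comparison, with log2 fold changes of 0.78 for Gsta2, 0.77 for the epoxide hydrolase Ephx1 and 0.72 for the biliverdin reductase Blvra. Blvra, at 20.1, 18.2 and 17.1 CPM in controls and 27.8, 30 and 33.6 CPM after Folfiri, thus moved opposite to Blvrb.

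Of the 14 glutathione turnover genes tested, 6 were lower (42.9%) and 3 higher (21.4%), beside 38.8% and 40.3% of all tested genes. Ggt1, which starts the breakdown of glutathione outside the cell, fell from 54.6, 54.1 and 55.3 CPM to 14.4, 13.5 and 14.9 CPM (log2 fold change of -1.94, SE 0.08). Chac1, which cleaves glutathione inside the cell, fell by 2.15 on the log2 scale and the cytosolic glutaredoxin Glrx by 1.80. Gpx8, a peroxidase of the endoplasmic reticulum, rose from 1.69, 1.64 and 1.29 CPM to 9.32, 10.4 and 11.2 CPM (log2 fold change of 2.72, SE 0.16, edgeR adjusted p = 9.54e-08). Glrx5, the mitochondrial glutaredoxin of iron-sulfur cluster assembly, rose by a log2 fold change of 0.70, and Ggct by 0.39, a call that was lost without control replicate 3 or Folfiri replicate 3.

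Of the thioredoxin relatives and methionine sulfoxide reductases, 7 of 14 were lower (50%) and 2 higher (14.3%), beside 38.8% and 40.3% of all tested genes. Txn2, the mitochondrial thioredoxin and substrate of Txnrd2, rose from 63.0, 64.6 and 60.4 CPM to 112, 115 and 126 CPM (log2 fold change of 0.91, SE 0.07, edgeR adjusted p = 9.56e-07). Ccs, the chaperone that loads copper onto Sod1, rose from 12.8, 11.2 and 9.92 CPM to 24.4, 23.7 and 25.7 CPM (log2 fold change of 1.11, SE 0.11, edgeR adjusted p = 3.76e-06). Each thus moved opposite to the member it works with. Nxn fell by 1.97 on the log2 scale, Txnrd3 by 0.80 and the sestrin Sesn2 by 0.77.

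The oxidases that make superoxide or hydrogen peroxide mostly had low counts, and 6 of the 15 were tested, 3 higher and 2 lower. Noxa1, the activator of the epithelial oxidase Nox1, fell from 8.32, 6.80 and 6.32 CPM to 0.905, 1.16 and 1.06 CPM (log2 fold change of -2.78, SE 0.18). Cyba, the membrane partner of several oxidases, rose from 12.9, 15.2 and 13.1 CPM to 19.7, 19.4 and 22.7 CPM (log2 fold change of 0.58, SE 0.11). Nox1 itself, named after its values were seen, had between 4 and 7 counts in controls and between 36 and 39 after Folfiri. Xdh had between 2 and 8 counts in controls and between 18 and 22 after Folfiri. Both were called higher, and both passed the expression filter only through the Folfiri group.

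**Figure D4:**
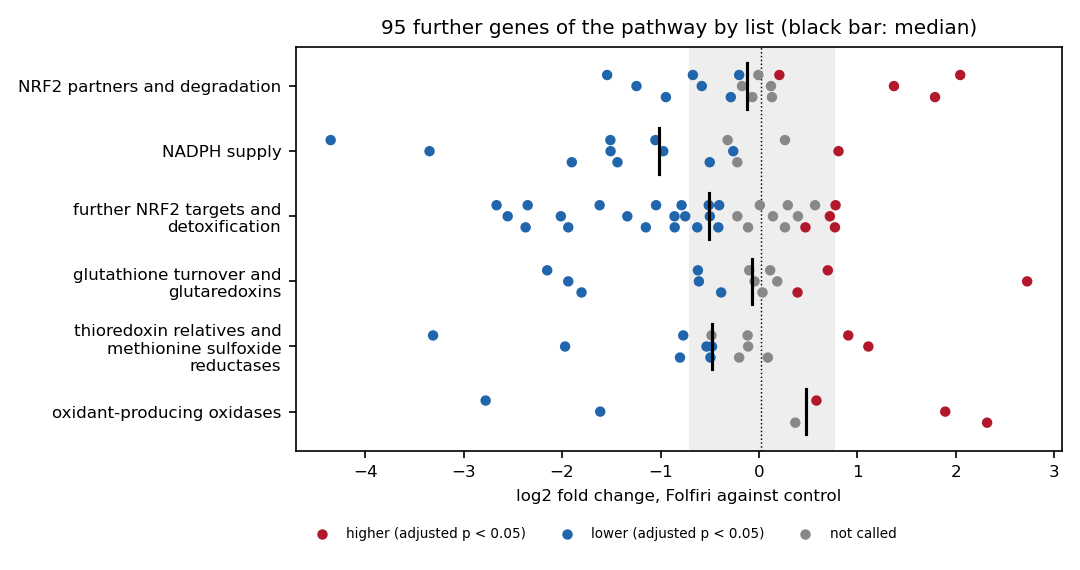
Log2 fold change, Folfiri against control (x axis), of the 95 tested genes outside the members in 6 pathway lists, with the median of each list as a black bar and the quartiles of all tested genes as a grey band. NADPH supply has the lowest median, -1.01, and 51 genes in all are called lower (blue) against 17 higher (red).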

How the data were processed

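RNA sequencing reads of 3 control and 3 Folfiri cultures of MTO54 were aligned by the authors with STAR 2.5.2 to GRCm38 with GENCODE annotation and counted per gene with Rsubread, and the counts were deposited without normalization. The library kit does not mark strand, and the treatment of multi-mapping reads is not given in the sources used here. Counting error limits genes with few counts.

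Starting from these counts, edgeR 4.0.16 in R 4.3.3 was run on all 14692 genes that passed its default expression filter, with TMM scaling, the quasi-likelihood test and Benjamini-Hochberg adjustment at 0.05. SE is the log2 fold change over the square root of F. CPM is computed on the counts of genes that passed the filter. Symbols, positions and exons came from GENCODE vM21 (GRCm38), in which 24168 of 24190 identifiers were found, and start-site windows from RefSeq GRCm38.p6. In simulated data for this comparison, 107 of 107 genes changed by a log2 fold of 2 and 83 of 91 changed by 1 were recovered, and 5 of 14266 unchanged genes were called. That simulation left nearly all genes unchanged and held no library that stood apart, whereas 79.1% of genes were called here. Its recovery and error counts therefore do not measure the error of the calls in these data.

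Members and lists were chosen with earlier results of these data known. Every member is named. From each pathway list, up to 3 genes that rose most and 3 that fell most were named, among those called with groups apart and a mean of at least 1 CPM. The Gstm2 to Gstm7 family, Gsta1, Gstt1, Gstt2, Gstt3, Gstk1, Gstz1, Gsto2, Bach2, Nox1, Noxo1 and Xdh were named after their values were seen. Alternatives were other scalings, filters, DESeq2 1.42.0, the replicate number as a block and each sample left out.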

Additional observations from a re-analysis of the deposited data

How the results depend on the processing

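Of the 37 tested members, 24 kept direction and call under all 13 alternatives. With total counts only, 14 members in place of 9 and 33 pathway genes in place of 17 were higher, and the median log2 fold change of the members was -0.18. The log2 fold changes of Gclc, Gsr and Txn1 turned to 0.27, 0.01 and 0.23, and 63.3% of all calls were higher in place of 51.0%. Under it Keap1, Gpx1 and Abcc1 were also called higher and Slc7a11 lost its call. Abcc1 was called with upper quartile scaling too. Slc7a11 lost its call with that scaling and with a filter at 1 CPM as well, and Gclm and Prdx3 lost theirs with no filter. This scaling by total counts moves the median of all genes from 0.02 to 0.30. With no filter the members' median was -0.38, beside 0.27 for all genes. That fit also takes in Gpx3 and Sod3, which the main fit did not test. Leaving out 1 sample at a time, the members' median lay between -0.55 (without control replicate 1) and -0.34 (without control replicate 2 or Folfiri replicate 3). In these fits 6 to 10 members were higher and 21 or 22 lower. The log2 ratio difference of Prdx1 to Prdx2 lay between -0.06 and 0.02. The cause was not tested.

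The replicate numbers gave no sign of pairing. The correlations of the deviations of same-numbered samples were 0.0267, -0.117 and 0.0393, and those of differently numbered samples lay between -0.118 and 0.12. With 3 samples in each group this check cannot exclude a pairing. With the replicate block 7 members were higher and 23 lower. Gclm and Prdx3 lost their calls and Nqo1 gained one. DESeq2 called 8 higher and 22 lower. Mgst1 and Mgst2 are limited by low counts, and Nqo1 had between 106 and 161 counts per sample.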
